A study of Mus musculus with 6 samples.

Results

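Expression of 10 genes of Toll-like receptor sensing was examined in mouse testes labelled Lats1/Lats2 knockout and control. The genes were chosen by name from the deposited table. The rule held no expression value, but earlier results of these data were known when the members were chosen. They were the receptor genes Tlr1, Tlr2, Tlr3, Tlr4, Tlr7, Tlr9 and Tlr13, the adaptor gene Myd88, the co-receptor gene Cd14 and Ly86, which encodes the receptor partner MD-1. All 10 were found among the 14998 genes of the table. Both groups carried floxed alleles of Lats1 and Lats2, kinase genes of the Hippo pathway. The 3 knockout libraries (Lats1flox/flox;Lats2flox/flox;Amh-cre) also carried Amh-cre, which drives Cre in Sertoli cells, the somatic support cells of the testis cords. By design other testis cells keep both genes, which was not checked here. The 3 control libraries (Lats1flox/flox;Lats2flox/flox) carried no Cre. RNA came from whole frozen testes of males whose age is not stated in the labels, and the series' design text names adrenal glands where the sample labels name testes.

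Toll-like receptors recognise molecules of microbes and of damaged cells. Tlr1, Tlr2 and Tlr4 act at the cell surface and sense lipoproteins and lipopolysaccharide, while Tlr3, Tlr7, Tlr9 and Tlr13 act in endosomes and sense nucleic acids. All mammalian Toll-like receptors except Tlr3 signal through MyD88, and Tlr3 signals through TRIF, the product of Ticam1. In the testis, resident macrophages express most of these receptors, and Sertoli, Leydig and germ cells have been described to express several of them, Tlr3 included.

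Values are FPKM, read counts scaled to gene length and library size, which allow levels of different genes to be compared. The library totals implied by the FPKM were 11045693 to 12322844 reads in knockout and 9490735 to 13620087 reads in control libraries. Spearman correlations across genes were 0.994 to 0.996 among knockout libraries, 0.987 to 0.994 among control libraries and 0.845 to 0.871 between the groups. Lats1 averaged 12.7 ± 0.239 FPKM in knockout and 15.7 ± 0.569 FPKM in control libraries, both ± SD with n = 3, and was called lower (log2 fold change -0.29, SE 0.04, limma adjusted p = 0.000474). Lats2 had 17.8, 18.2 and 18.1 FPKM in knockout and 15.4, 14.6 and 17.0 FPKM in control libraries. Lats2 was called higher in the libraries labelled knockout (log2 fold change 0.20, SE 0.06, limma adjusted p = 0.0126), so the whole-organ levels of both genes do not check the deletion and each direction below is drawn from the labels. No label ties a library to an animal of its own, so the p-values rest on differences among libraries that could be technical replicates. Markers of testis cells were present: in control libraries the Leydig cell gene Cyp17a1 had 162 to 195 FPKM, the Sertoli cell gene Clu 62.5 to 70.8 FPKM and the germ cell gene Mael 67.3 to 85.5 FPKM.

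Of the 10 genes, 8 were higher in knockout than in control libraries, Tlr3 was lower, and Tlr9 lay below the minimum mean of 1 FPKM used for testing. The rises ran from 2.43-fold for Myd88 to 26.8-fold for Cd14, and Tlr3 fell 1.96-fold. No gene of the 10 had overlapping groups. Genes were tested with limma on log2(FPKM + 1) over 13778 genes, with Benjamini-Hochberg adjustment over all of them and a threshold of 0.05. Changes between these libraries were widespread: 35.2% of all genes tested were called higher and 33.7% lower, 68.9% in either direction, and the groups did not overlap in 37.9% of genes with knockout above control and in 36.3% with knockout below. The median log2 fold change was 2.13 over the 9 members tested and 0.01 over all genes tested. As the members were chosen with earlier results of these data known, this contrast is a description only. In whole testes, more or fewer cells of a type and more or less RNA per cell cannot be told apart.

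**Figure D1:**
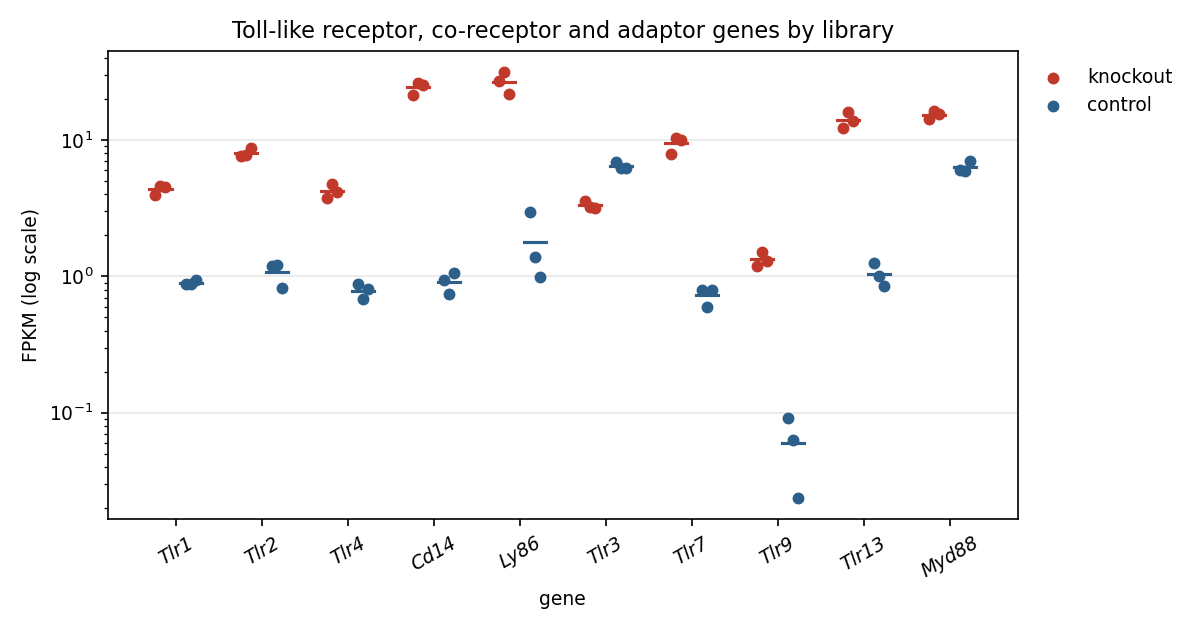
FPKM (log axis) of the 10 genes in each library, with knockout left of control for each gene, points for libraries and bars for group means of 3. For 9 genes all knockout points lie above all control points, and for Tlr3 the order is turned, with knockout at 3.15 to 3.58 FPKM and control at 6.28 to 6.88 FPKM.

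Among the surface receptor genes, Tlr2 (chromosome 3, 83836273 to 83841767, GRCm38), which pairs with Tlr1 or Tlr6 to bind lipoproteins, had 7.70, 7.84 and 8.73 FPKM in the knockout libraries, against 1.19, 1.22 and 0.823 FPKM in the control libraries. The lowest knockout library was more than 6 FPKM above the highest control. The 7.51-fold rise had a log2 fold change of 2.13 (SE 0.10, limma adjusted p = 3.52e-07).

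Tlr1 (chromosome 5, 64924811 to 64932761) had 3.98, 4.64 and 4.56 FPKM in knockout and 0.874, 0.886 and 0.935 FPKM in control libraries. The groups stood well apart, and the rise was 4.89-fold (log2 fold change 1.5, SE 0.09, limma adjusted p = 1.22e-06). Tlr1 and its neighbour Tlr6 are close paralogs, and 13.6% of the 50-base stretches of Tlr1 transcripts also occur in Tlr6. The treatment of reads that match both is not given in the sources used here, so the split between this pair is less certain than their joint rise.

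Tlr4 (chromosome 4, 66827584 to 66930284), the lipopolysaccharide receptor gene, had 3.78, 4.79 and 4.16 FPKM in knockout libraries, against 0.872, 0.687 and 0.803 FPKM in control libraries. All knockout libraries were at least 4 times as high as any control library, and the rise was 5.39-fold (log2 fold change 1.55, SE 0.10, limma adjusted p = 2.37e-06).

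The folds of both partner genes were larger than those of the 3 surface receptor genes. Cd14 (chromosome 18, 36725074 to 36726736), which encodes the lipopolysaccharide co-receptor that hands its ligand to Tlr4, had 21.5, 26.3 and 25.5 FPKM in knockout libraries, against 0.938, 0.747 and 1.05 FPKM in control libraries. These values rest on 417, 456 and 455 reads in knockout and 14, 16 and 20 reads in control libraries. The 26.8-fold rise was the largest among the members tested (log2 fold change 3.73, SE 0.09, limma adjusted p = 1.84e-08).

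Ly86 (chromosome 13, 37345345 to 37419036), whose product MD-1 holds the Toll-like receptor homologue CD180 at the surface of B cells and macrophages, had 26.9, 31.6 and 21.7 FPKM in knockout libraries, against 2.96, 1.40 and 0.994 FPKM in control libraries. The groups did not overlap, and control replicate 1 stood apart as the highest of the controls. The rise was 15-fold (log2 fold change 3.36, SE 0.23, limma adjusted p = 3.56e-06).

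The endosomal receptor genes moved in opposite directions. Tlr13 (chromosome X, 106143204 to 106160493), a mouse receptor for bacterial ribosomal RNA, had 12.4, 16.0 and 13.8 FPKM in knockout and 1.26, 1.01 and 0.849 FPKM in control libraries. It was the most abundant receptor gene of the knockout libraries, after a 13.5-fold rise (log2 fold change 2.88, SE 0.11, limma adjusted p = 1.24e-07). Tlr7 (chromosome X, 167304929 to 167330558), a receptor gene for single-stranded RNA, had 7.93, 10.3 and 10.1 FPKM in knockout and 0.800, 0.594 and 0.789 FPKM in control libraries. Its groups did not overlap either, and the rise was 13-fold (log2 fold change 2.59, SE 0.11, limma adjusted p = 2.13e-07).

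Tlr9 (chromosome 9, 106222598 to 106226876), the receptor gene for unmethylated CpG DNA, was the least abundant member in both groups, at 1.19, 1.51 and 1.30 FPKM in knockout and 0.0911, 0.0635 and 0.0238 FPKM in control libraries. These are 51, 58 and 51 reads in the knockout libraries, against 3, 3 and 1 reads in the control libraries. The ratio of its summed reads, per library total, was 23.2 with an exact 95% interval of 11 to 58.6 that covers counting error only. With no filter on low values, under which 33.4% of genes were called higher, limma gave it an adjusted p of 2.2e-05 and a log2 fold change of 1.14, which the added 1 FPKM makes small at such levels. The authors' deposited table lists a log2 fold change of 4.58 for Tlr9, mutant over control, with an FDR of 1.77e-11.

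Tlr3 (chromosome 8, 45395665 to 45410608), the receptor gene for double-stranded RNA, was the one member that fell. It had 3.58, 3.21 and 3.15 FPKM in knockout libraries, against 6.88, 6.30 and 6.28 FPKM in control libraries. Each knockout library lay below each control library, and the log2 fold change was -0.79 (SE 0.07, limma adjusted p = 1.82e-05). The reads behind it were 194, 156 and 157 in knockout and 287, 377 and 334 in control libraries. The gene model Gm45542 on the opposite strand covers 7.32% of the annotated Tlr3 exon bases, and the strand setting of the counting is not given in the sources used here. Summed testis cell markers fell in the same libraries: the summed FPKM of 7 Leydig cell genes was 316.5 to 360.5 in knockout and 697 to 787 in control libraries. That of 7 germ cell genes was 41.6 to 75.4 in knockout and 219 to 261 in control libraries, and that of 12 Sertoli cell genes was 176 to 203 in knockout and 349 to 372 in control libraries. All 7 Leydig cell genes, all 6 germ cell genes tested and 9 of 12 Sertoli cell genes were called lower. The other 3 Sertoli cell genes, Sox9, Wt1 and Cldn11, were called higher, with log2 fold changes of 0.23, 0.41 and 1.52. Cyp17a1 and Mael fell by 1.14 and 2.29 on the log2(FPKM + 1) scale, each further than Tlr3. On that scale the 7 Leydig cell genes ran from -1.555 to -0.893 and the 6 germ cell genes tested from -2.619 to -1.334. Dhh and Gata4, Sertoli cell genes called lower, changed by only -0.41 and -0.18. As a ratio of means, without the added 1 FPKM, Tlr3 fell 1.96-fold. Star, Nr5a1 and Clu fell less by that measure, 1.94-fold, 1.90-fold and 1.835-fold. The part of these cells in the fall of Tlr3 was not tested.

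Myd88 (chromosome 9, 119335934 to 119341411), the adaptor gene shared by all these receptors but Tlr3, had 14.3, 16.2 and 15.5 FPKM in knockout and 6.01, 5.93 and 7.06 FPKM in control libraries. Its groups did not overlap, and its 2.43-fold rise was the smallest among the members that rose (log2 fold change 1.16, SE 0.07, limma adjusted p = 2.12e-06). Acaa1a, a peroxisomal thiolase gene on the opposite strand, overlaps 11.3% of the annotated Myd88 exon bases and had 9.32 ± 0.0528 FPKM in knockout and 7.83 ± 0.658 FPKM in control libraries (SD, n = 3 each).

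The order of the members by level differed between the groups. In knockout libraries Ly86 and Cd14 came first, at means of 26.7 and 24.4 FPKM, and their ranges overlapped. Myd88 and Tlr13 followed with overlapping ranges, then Tlr7 and Tlr2, then Tlr1 and Tlr4, with Tlr3 ninth at 3.31 FPKM and Tlr9 last. In control libraries Tlr3 and Myd88 led with overlapping ranges, at means of 6.48 and 6.33 FPKM. Ly86, Tlr2, Tlr13, Cd14 and Tlr1 came next, each overlapping its neighbour, between 1.78 and 0.898 FPKM, and Tlr4, Tlr7 and Tlr9 were the lowest.

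The make-up of the receptor transcripts also differed. Over the 10 Toll-like receptor genes in the table, which adds Tlr5, Tlr6 and Tlr8, the summed level was 51.9, 62.4 and 59.1 FPKM in knockout and 14.6, 13.1 and 12.5 FPKM in control libraries. Tlr3 made up 6.90%, 5.15% and 5.33% of that sum in knockout libraries, against 47.0%, 48.1% and 50.1% in control libraries. Without Tlr3, the sum was 48.3 to 59.2 FPKM in knockout and 6.25 to 7.76 FPKM in control libraries. Tlr13 held the largest share in knockout libraries, 24.3 ± 1.22%, against 7.70 ± 0.927% in control libraries, and Tlr7 held 16.3 ± 0.901% in knockout and 5.43 ± 0.885% in control libraries (SD, n = 3 each). For the shares of Tlr3, Tlr7 and Tlr13 a two-sided exact permutation test over libraries gave p = 0.1, the smallest value that 3 against 3 can give. For Tlr1 the share of the sum overlapped between groups (7.60 ± 0.144% in knockout and 6.73 ± 0.745% in control libraries, exact permutation p = 0.2). That of Tlr5 overlapped too (3.85 ± 0.858% in knockout and 3.73 ± 0.376% in control libraries, exact permutation p = 0.9). Besides Tlr3, Tlr6 had a lower share in knockout libraries without overlap (7.47 ± 0.383% against 10.4 ± 1.78% in control libraries, exact permutation p = 0.1).

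**Figure D2:**
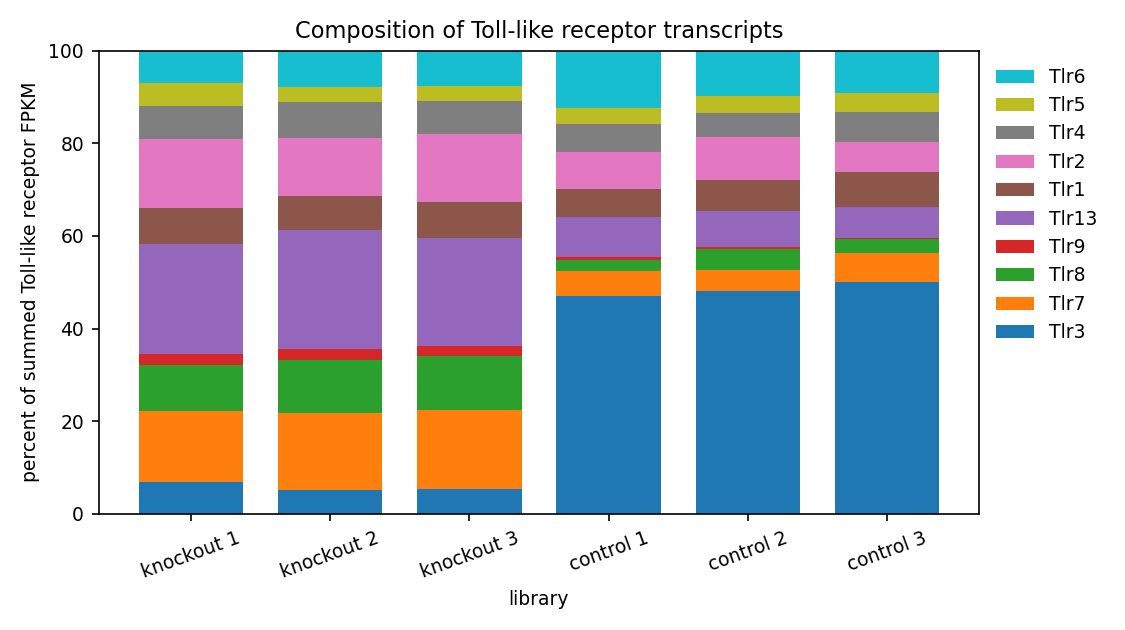
Share of each Toll-like receptor gene in the summed FPKM of the 10 such genes, in percent, with 1 bar for each library, knockout bars left of control bars. Tlr3 fills 47.0% to 50.1% of each control bar and 5.15% to 6.90% of each knockout bar.

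Macrophage markers rose in the same libraries. All 19 markers tested of a list of 20 were called higher, and their summed level was 654.5 to 759 FPKM in knockout and 90.5 to 104 FPKM in control libraries, with no marker at 0 in either group. Csf1r, a growth factor receptor gene of macrophages, rose 11.2-fold, and Emr1 (Adgre1, which encodes F4/80) 10.4-fold. Cx3cr1, a chemokine receptor gene, rose 10.3-fold and the lysosomal glycoprotein gene Cd68 5.71-fold. Over the 20 markers the fold ran from 1.42 to 14.1 with a median of 9.85. Cd14, Tlr9 and Ly86 lay above that range. Tlr13, Tlr7, Tlr2, Tlr4, Tlr1 and Myd88, in falling order, lay inside it, and Tlr3 lay below it. The low end of the range was Mertk alone, and the next lowest marker was Cd163 at 3.83-fold. Myd88, at 2.43-fold, was thus inside the range only through Mertk.

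Set against the summed macrophage markers of the same library, the members differed from each other. Cd14 had 32.9, 34.6 and 33.7 FPKM per 1000 FPKM of macrophage markers in knockout libraries, against 10.4, 8.22 and 10.1 in control libraries, a 3.52-fold higher ratio. Tlr7 and Tlr13 were 1.70-fold and 1.75-fold higher on this scale, and Tlr9 2.86-fold, each without overlap of the groups. Ly86 averaged 37.1 ± 7.38 in knockout and 19.2 ± 12.0 in control libraries (SD, n = 3 each), with overlap, a log2 ratio of 0.95 that was 1.57 without control replicate 1.

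Tlr2 had about the same ratio in both groups, 11.2 ± 0.768 in knockout and 11.5 ± 3.08 FPKM per 1000 FPKM of macrophage markers in control libraries (SD, n = 3 each), with overlap. Tlr1 and Tlr4 were 1.56-fold and 1.42-fold lower on this scale in knockout libraries. Myd88 was 3.13-fold lower, at 21.3 ± 0.716 in knockout and 66.6 ± 1.45 in control libraries. Tlr3 was 14.9-fold lower, at 4.62 ± 0.737 in knockout and 68.6 ± 7.77 in control libraries. Exact two-sided permutation tests over the libraries gave p = 0.1, the smallest possible, for Cd14, Tlr7, Tlr9, Tlr13, Tlr1, Tlr4, Myd88 and Tlr3, p = 0.2 for Ly86 and p = 1 for Tlr2. Over these 10 tests none could pass a threshold of 0.05, and the ratios show unequal change only. The part of macrophage number in the rise of the members was not tested.

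**Figure D3:**
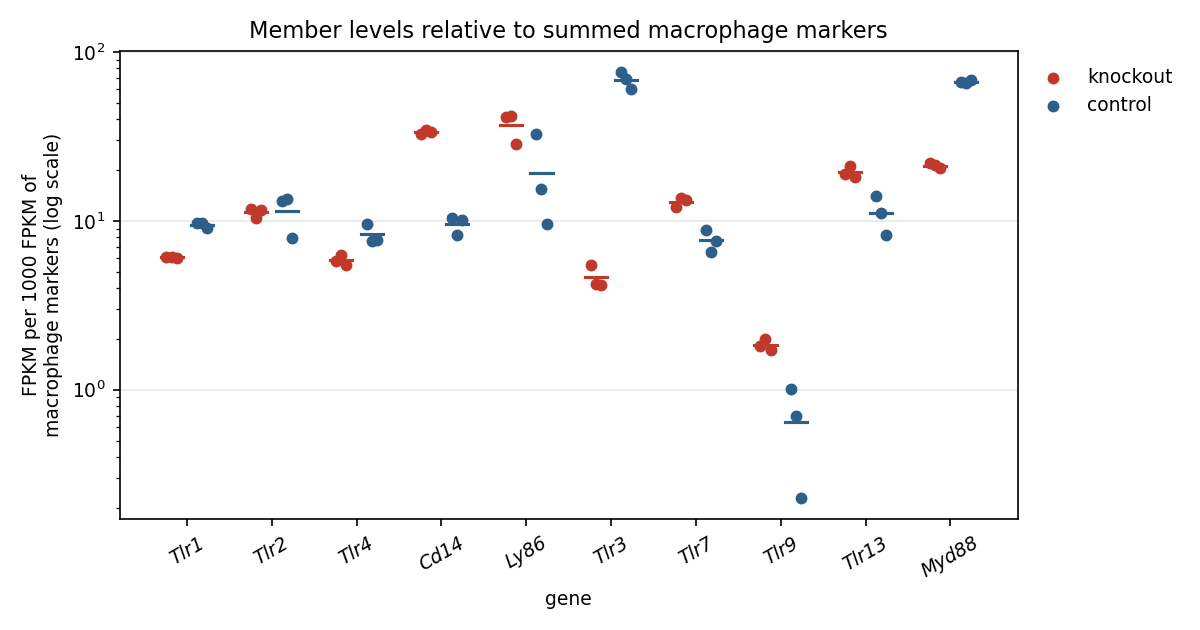
Level of each member per 1000 FPKM of the 20 summed macrophage markers in the same library (log axis), knockout left of control, with bars for means of 3 libraries. Cd14 is higher in knockout libraries, Tlr2 overlaps, and Myd88 and Tlr3 are lower, with Tlr3 at 4.16 to 5.47 in knockout and 60.6 to 76.1 in control libraries.

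Markers of other immune cells did not all move this way. Of 4 mast cell genes in the table all 4 rose, with a sum of 46.2 to 69.0 FPKM in knockout and 3.37 to 4.60 FPKM in control libraries, led by the carboxypeptidase gene Cpa3 (log2 fold change 3.36, limma adjusted p = 1.62e-07). Of 4 neutrophil genes tested 1 rose and 3 did not pass, and S100a8, which neutrophils make in quantity, had 39.3, 64.4 and 47.3 FPKM in knockout and 42.7, 35.8 and 58.4 FPKM in control libraries, with full overlap. The B cell gene Cd79a was below the filter and lower in knockout libraries, with 0.186 to 0.363 FPKM in knockout and 0.794 to 1.23 FPKM in control libraries. By contrast, Cd79b rose 5.16-fold, to 1.73 ± 0.229 FPKM in knockout against 0.335 ± 0.0598 FPKM in control libraries (SD, n = 3 each). Of 3 plasmacytoid dendritic cell genes 1 rose, 1 fell and 1 did not pass. Siglech rose 6.5-fold, to 1.95 ± 0.17 FPKM in knockout against 0.30 ± 0.0542 FPKM in control libraries (SD, n = 3 each, limma adjusted p = 1.19e-05). Bst2, the most abundant of them, was the one that fell, with 19.4 to 19.9 FPKM in knockout and 25.8 to 32.2 FPKM in control libraries. Of 2 dendritic cell genes in the table Zbtb46 did not pass. Itgax, which encodes CD11c and is also made by macrophages, lay under the filter, with 1.04, 1.14 and 1.07 FPKM in knockout and 0.182, 0.109 and 0.123 FPKM in control libraries, without overlap. None of 6 T cell genes was analysed here. Endothelial genes moved both ways, with 3 higher, 1 lower and 3 not past of 7, and Cdh5, the most abundant, was called lower (log2 fold change -0.46, limma adjusted p = 0.000539). All 6 mesothelial genes were called higher. Msln, by mean the highest of them in knockout and the lowest in control libraries, where its range overlapped that of Lrrn4, averaged 98.2 ± 7.15 FPKM in knockout and 4.30 ± 1.60 FPKM in control libraries (SD, n = 3 each). The part of these cells in the changes of the members was not tested.

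Other genes of the pathway, 38 of 42 listed in the table, were mostly higher: 30 rose, 1 fell and 7 did not pass, with a median log2 fold change of 0.51, against 0.01 over all genes tested. Over all genes tested 35.2% were called higher and 33.7% lower, the shares to set beside this count and those of the smaller lists below. These lists too were chosen with earlier results of these data known. Among the further receptor genes, Tlr8, an endosomal RNA receptor gene, had 5.18, 7.12 and 6.94 FPKM in knockout and 0.353, 0.594 and 0.369 FPKM in control libraries, a 14.6-fold rise. Tlr6, the second partner of Tlr2, had 3.65, 4.83 and 4.51 FPKM in knockout and 1.82, 1.27 and 1.14 FPKM in control libraries. Tlr5, the flagellin receptor gene, had 2.51, 2.12 and 1.96 FPKM in knockout and 0.494, 0.482 and 0.516 FPKM in control libraries. All 3 passed the test, with limma adjusted p-values of 8.29e-07, 6.91e-05 and 2.10e-05. Tlr11 and Tlr12 were not analysed here.

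The genes of receptor partners and of trafficking rose in 7 of 9 cases. Log2 fold changes of the 9 genes had a median of 0.67 and ran from 0.06 to 1.81. Unc93b1, which encodes the chaperone that carries the endosomal receptors out of the endoplasmic reticulum, reached 16.6 ± 1.57 FPKM in knockout libraries, against 4.02 ± 0.204 FPKM in control libraries (SD, n = 3 each), a 4.13-fold rise. Cd180, the receptor gene that MD-1 serves, rose 5.61-fold, to 3.29 ± 0.0848 FPKM in knockout against 0.586 ± 0.0476 FPKM in control libraries. Ly96, which encodes MD-2, the lipopolysaccharide-binding partner of Tlr4, rose 1.66-fold, to 13.7 ± 0.719 FPKM in knockout against 8.28 ± 0.684 FPKM in control libraries, and its control level was above those of Tlr4 and Cd14. Slc15a3, a lysosomal peptide transporter gene, rose 6.01-fold. Limma adjusted p-values for these 4 genes ran from 1.91e-07 for Unc93b1 to 3.09e-05 for Ly96.

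All 4 further adaptor genes in the table rose. Ticam1, which serves Tlr3 and Tlr4, rose 1.46-fold, with 7.49, 7.02 and 7.05 FPKM in knockout and 4.51, 4.44 and 5.77 FPKM in control libraries (log2 fold change 0.48, SE 0.09, limma adjusted p = 0.0016). It thus moved opposite to Tlr3. Tirap, which bridges Tlr2 and Tlr4 to MyD88, rose 2.36-fold, Ticam2, which bridges Tlr4 to TRIF, 4.92-fold, and Pik3ap1, the B cell adaptor that links Toll-like receptors to PI3 kinase, 3.76-fold.

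Of 13 kinase and ubiquitin ligase genes below the adaptors 10 rose, 1 fell and 2 did not pass. Most changes were small: the log2 fold changes of the 13 genes had a median of 0.38 and ran from -0.31 to 2.08. Btk, a tyrosine kinase gene of B cells and myeloid cells, rose 7.31-fold, to 7.78 ± 1.31 FPKM in knockout against 1.06 ± 0.221 FPKM in control libraries (SD, n = 3 each). Tab3, a TAK1 binding protein gene, was the one that fell, to 9.64, 9.18 and 9.79 FPKM in knockout against 12.3, 13.2 and 10.7 FPKM in control libraries (log2 fold change -0.31, SE 0.07, limma adjusted p = 0.00517). Of 5 genes of negative regulators 3 rose and 2 did not pass. Tnfaip3, which encodes the deubiquitinase A20, rose 3.87-fold. Il1rl1, which encodes the IL-33 receptor ST2, rose 8.34-fold, to 2.22 ± 0.370 FPKM in knockout against 0.266 ± 0.0781 FPKM in control libraries (SD, n = 3 each). Irak3, an inhibitory kinase homologue of macrophages, had 2.03, 2.36 and 2.42 FPKM in knockout and 1.78, 1.56 and 2.16 FPKM in control libraries and did not pass (limma adjusted p = 0.106). Of 4 interferon regulatory factor genes 3 rose and 1 did not pass.

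**Figure D4:**
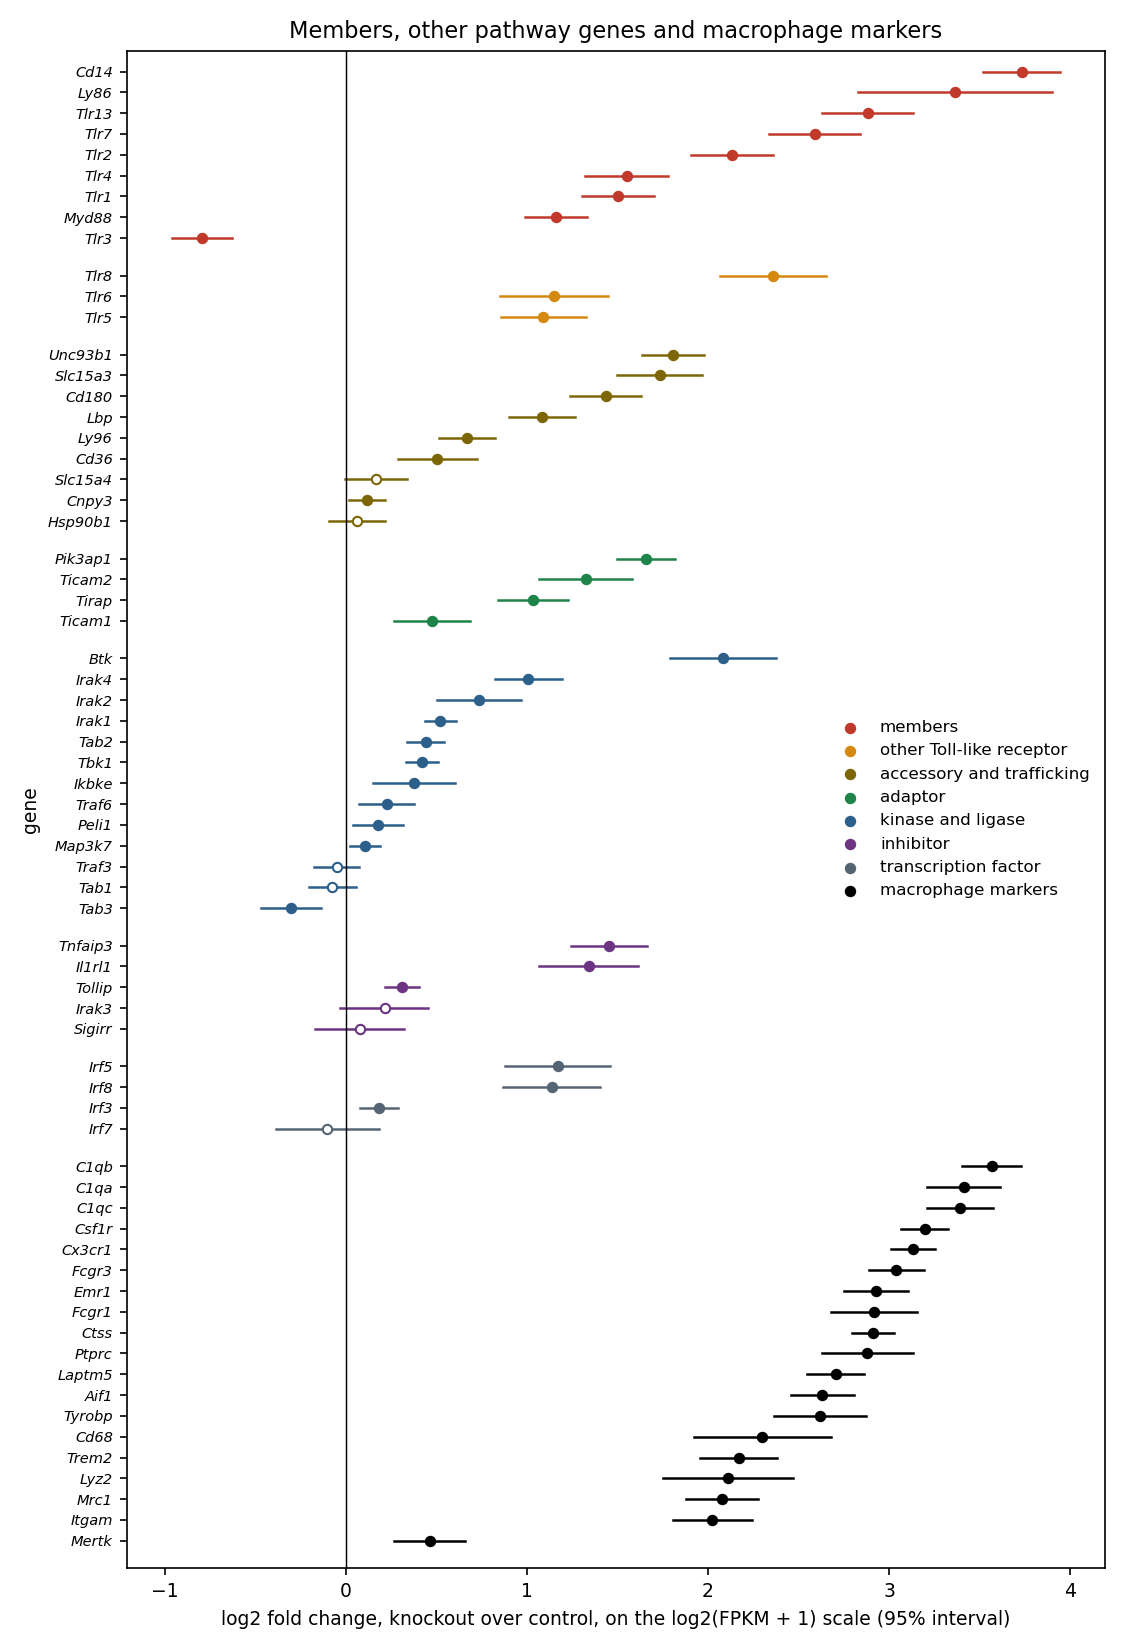
Log2 fold change, knockout over control, on the log2(FPKM + 1) scale with its 95% interval from limma, for the 9 members tested, 38 other pathway genes by role and 19 macrophage markers. Open points did not pass the test. Tlr3 at -0.79 and Tab3 at -0.31 are the filled points left of 0.

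Promoter sequence was read for 7 members from RefSeq's table (GRCm38.p6), as the 250 bases before each annotated start. The promoters of Tlr4, Tlr7 and Cd14 were not analysed here. The letters GAGGAA, the core of sites for PU.1, the ETS factor that directs macrophage development, were searched on both strands. They occurred once each before the starts of Tlr1, Tlr9 and Tlr13, beginning 23, 112 and 83 bases before the start, and not in the windows of Tlr2, Tlr3, Myd88 and Ly86. These letters are held by 23.3% of the 32851 promoters listed by RefSeq. The 3 windows with a match and that of Tlr3, the member that fell, are shown, with the matching letters in capitals. They lie at chr5:64933559-64933808 (Tlr1, minus strand, the upstream one of its 2 starts), chr9:106222348-106222597 (Tlr9, plus strand), chrX:106143025-106143274 (Tlr13, plus strand) and chr8:45410381-45410630 (Tlr3, minus strand), and are written 5′ to 3′ along each gene.
Tlr1: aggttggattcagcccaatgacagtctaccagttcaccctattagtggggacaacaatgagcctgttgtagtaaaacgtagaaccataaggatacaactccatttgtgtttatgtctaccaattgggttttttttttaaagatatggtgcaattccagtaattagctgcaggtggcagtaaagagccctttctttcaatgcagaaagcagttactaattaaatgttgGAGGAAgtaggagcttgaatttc
Tlr9: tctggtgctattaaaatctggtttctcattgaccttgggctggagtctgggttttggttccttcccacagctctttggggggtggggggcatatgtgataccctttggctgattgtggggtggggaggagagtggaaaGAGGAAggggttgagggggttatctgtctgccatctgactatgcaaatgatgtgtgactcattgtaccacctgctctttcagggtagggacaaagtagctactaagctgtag
Tlr13: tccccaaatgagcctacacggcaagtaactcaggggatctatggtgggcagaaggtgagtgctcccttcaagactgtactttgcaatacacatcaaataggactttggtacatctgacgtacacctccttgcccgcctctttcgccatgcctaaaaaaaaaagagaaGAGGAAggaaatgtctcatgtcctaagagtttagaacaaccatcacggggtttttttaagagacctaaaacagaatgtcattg
Tlr3: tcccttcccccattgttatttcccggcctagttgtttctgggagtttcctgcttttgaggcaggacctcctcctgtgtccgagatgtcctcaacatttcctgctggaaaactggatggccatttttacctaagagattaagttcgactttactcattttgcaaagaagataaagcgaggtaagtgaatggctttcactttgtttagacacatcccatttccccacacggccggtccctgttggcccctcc

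The RefSeq start of Tlr9 was the edge of the gene in the deposited table, and those of Tlr13 and Tlr3 lay 71 and 228 bases inside it. Among the windows not shown, the start of Ly86 was also the edge, and those of Tlr2 and Myd88 lay 159 and 1393 bases inside. The Myd88 window thus lay wholly within its gene in the deposited table. The Tlr1 start whose window is shown lay 797 bases outside the gene in the deposited table, and the window of its other start, 62 bases from that edge, held no GAGGAA. The letters GGGANTT, with which many NF-kB sites begin, occurred in the windows of Tlr2, where the 2 matches are the 2 strands of 1 overlapping site, and of Tlr3, with 1 match (14.4% of all promoters). The AP-1 letters TGANTCA occurred once, before Tlr9 (6.75% of all promoters). The TEAD letters GGAATG, which mark sites of the factors that carry YAP and TAZ on DNA and can overlap the PU.1 letters, occurred in none of the windows (12.6% of all promoters). A match is a description of these letters and not a sign of binding.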

How the data were processed

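Per the labels, total RNA of whole testes was extracted with an RNeasy Mini kit and STAR was the aligner. GRCm38 and DESeq2 1.22.2, used by the authors, come from the submitters' processing notes. What counted the reads, with which annotation and strand setting, is not stated in the labels or headers. Each library has a column of FPKM computed by the authors, beside the authors' log2 fold changes and adjusted p-values (FDR), which are quoted for Tlr9 alone. Columns named mutant were read as the libraries titled KO.

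The test was limma 3.58.1 (R 4.3.3, trended variance, two-sided), run on log2(FPKM + 1) for genes whose mean reached 1 FPKM and also run on simulated data. The simulation changed far fewer genes than were called here, all with many more reads than Tlr9 had in control libraries. It therefore does not show how the test performs with widespread change or for genes with few reads. Folds are ratios of mean FPKM. Fitted log2 changes include the added 1 FPKM and so are too small for low genes. Whole reads were recovered from the FPKM for 98.7% of genes (tolerance 0.003 reads), with gene models of GENCODE M21. Of 147 list entries 124 were in the table, 1 of them by Ensembl ID.

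The members, the gene lists, the alternatives and the rule for named genes were chosen with earlier results of these data known. The rule takes all members, fixed pathway genes with the 4 largest rises and 4 largest falls on the log2(FPKM + 1) scale beyond these, 4 macrophage genes and the gene of each other marker list with the highest mean over all libraries; Tab3 alone fell. Cd79a, Itgax, Il1rl1, Ticam2, Acaa1a, Gm45542, Siglech, Sox9, Wt1, Cldn11, Mertk, Cd163, Star, Nr5a1, Dhh and Gata4 were named after their values were seen. Python 3.11.15, scipy 1.17.1 and matplotlib 3.10.9 were used. One listed gene is not reported here.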

Additional observations from a re-analysis of the deposited data

How the results depend on the processing

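The members called (8 higher, 1 lower) were unchanged under pseudocounts of 0.1 and 0.01, median-ratio scaling, limma-voom on recovered reads, a threshold of 0.01 and the omission of each library. Leaving Lyz2 and Ctss out of the macrophage markers changed the sign of no log2 ratio but shifted their values. That of Tlr1 went from -0.64 to -0.79, that of Myd88 from -1.65 to -1.80 and that of Tlr2 from -0.04 to -0.18. Without a filter 9 members were higher, Tlr9 included. A filter at a mean of 5 FPKM left fewer genes to test, with 5 members higher and 0 lower (Tlr3 was under it), 16 other pathway genes higher and 2903 genes of the table lower. With each library left out, 26 to 32 other pathway genes were higher and 1 lower, and over the whole table from 4318 to 5059 genes were higher and 4281 to 4404 lower. The threshold of 0.01 left 26 other pathway genes higher and 1 lower, with 4057 genes of the table higher and 3815 lower. Across the alternatives the log2 fold change of Tlr3 ran from -0.97 to -0.76 (limma adjusted p 5.72e-06 to 0.000186) and that of Cd14 from 3.67 to 4.74. Same-numbered libraries did not deviate together (correlations -0.00713, -0.016 and 0.0966), so the numbers do not pair them; with a replicate block 8 members were higher and 1 lower, 28 other pathway genes were higher and 1 lower, and 4762 genes of the table were higher and 4597 lower.

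Relative to macrophage markers, the log2 ratio of Tlr2 (-0.04) changed sign to 0.02 without knockout replicate 2, 0.07 without control replicate 1 and 0.089 without control replicate 2 (range with each library left out -0.244 to 0.089), each far inside the spread between libraries. That of Ly86 was 0.95, and 1.57 without control replicate 1; that of Tlr9 was 1.51, and 1.99 without control replicate 1. Depth limits Tlr9 most, with 7 reads over all control libraries.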
